A study of Mus musculus with 12 samples.

Results

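Of the 10 kb bins of the mouse genome that carried an H3K27ac value in embryonic stem cells (ESCs) before and after induction of a KLF knockout, 4131 of 22739 overlapped no H3K27ac peak and no KLF4 peak of induced pluripotent stem cells (iPSCs). These 4131 bins, 18.2% of the valued bins, are called unmatched bins here, and the other 18608 matched bins. A bin was taken as valued when its deposited value exceeded 1e-300 at 0 h and at 24 h, and as matched when an iPSC peak covered at least 1 base of it. The unmatched bins were thus chosen by the ESC H3K27ac values and the positions of iPSC peaks. The matched bins comprised 9751 with an H3K27ac peak only, 700 with a KLF4 peak only and 8157 with both. In all, 54825 bins were listed at either time.

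Acetylation of histone H3 at lysine 27 is laid down by the acetyltransferases p300 and CBP and marks active enhancers and promoters, where it can spread over several nucleosomes around an open site. KLF4, KLF2 and KLF5 are zinc-finger transcription factors that bind GC-rich CACCC-type sites and overlap in holding mouse pluripotent cells in the naive state. A peak list reports where a signal passed a caller's threshold, so a bin without a listed peak was not shown to lack the mark.

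The lists came from ChIP-seq of 12 mouse samples in 7 groups, of which 2 samples gave ESC H3K27ac at 0 h and 2 at 24 h, and 2 each gave H3K27ac and KLF4 in iPSCs. The ESCs were picked clones of line V6.5 with lentiviral, doxycycline-inducible Cas9 and guides, against KLF4 only or against KLF2, KLF4 and KLF5 together per the labels, without doxycycline (0 h) or with it for 24 h. The 24 h titles carry both TKO and KLF4 KO, so the labels do not settle which genes were targeted, and the 0 h cells carried the same vector. ESC cultures were kept on irradiated feeder cells with LIF, the labels place all samples in 2i medium, and no source used here states the origin of the iPSCs. Each of these 4 groups was represented by 1 list, so there is no replicate error and no test, and read depth is unknown. Shares are given with exact binomial intervals at 95%, which cover counting error only. The number of the 20 chromosomes that showed the same order is given as a second description. Adjacent bins can hold the same value and are not independent.

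Pluripotency genes were well covered by valued bins, with 18 of 20 naive and 16 of 16 shared pluripotency genes having at least 1 within 10 kb, against 6 of 12 fibroblast genes. The ESC lists held 49460 bins at 0 h and 47307 at 24 h, of which 26812 and 25611 carried a value. The iPSC lists held 55466 H3K27ac peaks and 21563 KLF4 peaks. Over all 22739 valued bins the median ratio of the 24 h to the 0 h value was 0.854, or -0.23 on the log2 scale. Relative values below are log2 ratios of 24 h over 0 h minus that median.

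Examples of the promoter-side sequence of genes that start inside unmatched bins are shown first, from the bins of highest value and from bins far from any iPSC peak, because CpG content is compared between groups of such windows below. Each line gives the 250 bases before a RefSeq gene start (build GRCm38.p6), written 5′ to 3′ along the gene. Capitals mark any of 12 short motifs, searched on both strands. The following 4 gene starts had the highest 0 h values among unmatched bins. Cldn34-ps is a claudin gene listed as protein-coding, Zdhhc15 encodes a palmitoyltransferase, and Fam186a and Lyrm1 encode a little-studied protein and a LYR-motif protein.
Cldn34-ps (chrX:77675453-77675702, minus strand): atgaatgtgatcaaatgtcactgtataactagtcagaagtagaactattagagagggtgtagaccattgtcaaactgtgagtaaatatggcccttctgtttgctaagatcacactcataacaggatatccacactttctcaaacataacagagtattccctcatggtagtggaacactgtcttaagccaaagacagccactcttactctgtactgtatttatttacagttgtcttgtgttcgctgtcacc
Fam186a (chr15:99931659-99931908, minus strand): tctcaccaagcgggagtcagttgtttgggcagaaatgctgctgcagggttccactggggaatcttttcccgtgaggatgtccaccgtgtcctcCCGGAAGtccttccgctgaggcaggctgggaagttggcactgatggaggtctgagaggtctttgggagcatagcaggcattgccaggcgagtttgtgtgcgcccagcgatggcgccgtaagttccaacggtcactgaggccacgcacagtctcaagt
Zdhhc15 (chrX:104671065-104671314, minus strand): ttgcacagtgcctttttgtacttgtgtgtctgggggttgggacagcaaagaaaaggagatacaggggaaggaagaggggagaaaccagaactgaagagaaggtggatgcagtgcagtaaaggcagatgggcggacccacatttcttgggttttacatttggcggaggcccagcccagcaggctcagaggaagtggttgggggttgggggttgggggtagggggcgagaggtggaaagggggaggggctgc
Lyrm1 (chr7:119899861-119900110, plus strand): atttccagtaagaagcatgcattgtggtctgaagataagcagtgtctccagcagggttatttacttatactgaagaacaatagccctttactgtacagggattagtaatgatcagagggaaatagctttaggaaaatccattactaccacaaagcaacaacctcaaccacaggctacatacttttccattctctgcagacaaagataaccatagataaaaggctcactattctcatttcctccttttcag
The next 4 starts, a set chosen after values were seen, had the highest 0 h values among unmatched bins with no iPSC peak within 50 kb. Nr0b1 encodes DAX1, a nuclear receptor of the naive pluripotency network. Mid1ip1 encodes a regulator of fatty acid synthesis, Tmem47 a membrane protein of cell junctions, and Klhl13 a kelch-like adaptor of a ubiquitin ligase.
Nr0b1 (chrX:86191525-86191774, plus strand): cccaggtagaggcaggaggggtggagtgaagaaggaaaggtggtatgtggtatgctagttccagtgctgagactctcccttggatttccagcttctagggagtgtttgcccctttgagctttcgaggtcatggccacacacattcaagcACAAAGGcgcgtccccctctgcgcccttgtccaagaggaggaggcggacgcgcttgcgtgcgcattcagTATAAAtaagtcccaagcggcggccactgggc
Mid1ip1 (chrX:10717115-10717364, plus strand): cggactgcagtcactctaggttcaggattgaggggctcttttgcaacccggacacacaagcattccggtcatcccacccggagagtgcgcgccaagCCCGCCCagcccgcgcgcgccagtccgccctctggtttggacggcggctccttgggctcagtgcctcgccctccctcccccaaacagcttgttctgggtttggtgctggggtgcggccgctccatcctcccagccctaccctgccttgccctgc
Tmem47 (chrX:81070394-81070643, plus strand): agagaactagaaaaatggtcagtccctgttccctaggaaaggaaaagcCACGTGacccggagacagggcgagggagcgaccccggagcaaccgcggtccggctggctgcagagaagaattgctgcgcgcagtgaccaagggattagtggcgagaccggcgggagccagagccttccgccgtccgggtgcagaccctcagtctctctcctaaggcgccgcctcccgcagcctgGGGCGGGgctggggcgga
Klhl13 (chrX:23365064-23365313, minus strand): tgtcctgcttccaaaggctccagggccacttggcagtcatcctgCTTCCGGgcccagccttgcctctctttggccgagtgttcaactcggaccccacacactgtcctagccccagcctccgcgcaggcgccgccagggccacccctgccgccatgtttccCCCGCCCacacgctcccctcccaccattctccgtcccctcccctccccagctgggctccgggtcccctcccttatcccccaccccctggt
The Cldn34-ps, Fam186a and Lyrm1 bins carried the value of an adjacent bin with an iPSC peak, whereas the Zdhhc15 bin had its own value and lay 46.8 kb from the nearest iPSC peak. In the first set the observed over expected ratio of CpG was 0.10 at Cldn34-ps, 0.57 at Fam186a, 0.20 at Zdhhc15 and 0 at Lyrm1. In the second set it was 0.55 at Nr0b1, 0.63 at Mid1ip1, 0.79 at Tmem47 and 0.49 at Klhl13. Capitals show an ETS core in Fam186a, a SOX core and a TATA motif in Nr0b1, GC boxes in Mid1ip1, Tmem47 and Klhl13, an E box in Tmem47 and an ETS core in Klhl13. The windows of Cldn34-ps, Zdhhc15 and Lyrm1 held none of the 12 motifs.

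Gene starts lay in a smaller share of unmatched than of matched bins. Off chromosome 18, 325 of 3967 unmatched bins (8.19%, 7.36 to 9.09) and 5527 of 18014 matched bins (30.7%, 30.0 to 31.4) held the start of a protein-coding gene of the table. An end of a protein-coding gene, at either side, lay within 2 kb of 31.5% (30.1 to 33.0) of unmatched and 49.4% (48.7 to 50.1) of matched bins, and the share was lower in unmatched bins on 20 of 20 chromosomes, by 10.4 to 25.7 percentage points. Within deciles of the mean value the difference was 15.1 points, against 17.9 points overall. Bins with neither a gene body nor a nearby gene end were 26.2% of unmatched and 21.4% of matched bins. A further 70.1% and 75.7% touched the body of a protein-coding gene.

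The 392 protein-coding gene-start windows in unmatched bins, from 346 genes, were poorer in CpG than those in matched bins. Their median observed over expected CpG ratio was 0.42, against 0.76 in 7571 windows of matched bins, 0.34 in protein-coding windows of bins not valued at both times and 0.53 in all 21262 protein-coding windows of the table. A ratio below 0.4 was found in 47.2% (42.2 to 52.3) of unmatched and 15.6% (14.8 to 16.4) of matched windows. Among unmatched bins the share was 65.1% (49.1 to 79.0) of 43 windows where the bin shared its value with a peak-holding neighbour, 46.4% (40.8 to 52.0) of 317 windows where the bin had its own value and a peak within 50 kb, and 10.5% (1.30 to 33.1) of 19 windows with no peak within 50 kb. The last group held 16 genes, and its order relative to the others rests on 2 windows below 0.4.

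The motifs searched were 2 KLF cores (GGGTGTG and GGGCGTG), the GC box of SP factors (GGGCGGG), part of the octamer (ATGCAAA), the SOX core (ACAAAGG), the ETS core (CCGGAAG), the YY1 core (AGATGGC), the NRF1 core (GCATGCG), the CRE (TGACGTC), the E box (CACGTG), the TATA motif (TATAAA) and the CCAAT motif. Matches of different motifs may overlap, and a match describes letters in the window, not a bound site. Either KLF core was present in 14.3% (10.98 to 18.1) of unmatched windows and in 13.6% (12.4 to 14.8) of windows in bins with an H3K27ac peak only. It was present in 23.4% (22.1 to 24.7) of windows in bins with H3K27ac and KLF4 peaks and in 16.01% of all protein-coding windows. The GC box was held by 26.8%, 34.3%, 51.4% and 31.1% of these same 4 sets, in that order. The 2 KLF cores differed, with GGGTGTG in 8.42%, 5.28%, 8.18% and 7.08% of these sets. GGGCGTG, which contains a CpG, was held by 6.12%, 9.02%, 17.0% and 9.85%. Windows in bins with a KLF4 peak only held either KLF core in 20.3% (15.1 to 26.3) and the GC box in 50.9%. The ETS core was held by 6.12% of unmatched windows, 17.0% of those with H3K27ac only, 14.4% of those with both peaks and 8.98% of all protein-coding windows. TATAAA was held by 9.18% of unmatched, 5.79% of matched and 11.6% of all protein-coding windows, and CCAAT by 41.6%, 35.9% and 35.4%. The octamer part, SOX, YY1, NRF1, CRE and E box letters were held by 4.08%, 4.08%, 3.83%, 3.32%, 2.30% and 6.63% of unmatched windows, against 3.86%, 4.73%, 3.95%, 3.73%, 3.36% and 6.63% of all protein-coding windows. Matched windows held them in 2.99%, 3.87%, 4.78%, 5.79%, 4.95% and 8.96%, in the same order.

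The H3K27ac values of unmatched bins were lower than those of matched bins, which is a description, since the rule used the same column. The median was 3.53 at 0 h and 3.32 at 24 h in unmatched bins, with interquartile ranges of 2.91 to 4.60 and 2.74 to 4.22. Matched bins had medians of 5.27 and 4.45, bins with an H3K27ac peak only 4.86 and 4.36, and bins with a KLF4 peak only 3.61 and 3.05. The unmatched medians were thus closest to those of the KLF4-only bins, and below those of every other class at 0 h. On 20 of 20 chromosomes the 0 h median was lower in unmatched than in matched bins. Unmatched bins made up 47.6% (45.5 to 49.7) of the lowest decile of all valued bins by mean value, 20.98% of the fourth decile, 6.60% of the eighth and 6.68% (5.69 to 7.79) of the highest. The lowest unmatched values were 1.67 at 0 h and 1.49 at 24 h. Just inside the rule, 164 unmatched bins had an iPSC peak at most 100 bp outside their edge. Just outside it, iPSC peaks covered at most 100 bp of 215 matched bins. Over all matched bins the median covered length was 1271 bp, with the lengths under H3K27ac and KLF4 peaks added. Of the bins listed at both times without an iPSC peak, 1056 had a value at 0 h only, 1159 at 24 h only and 14375 at neither.

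**Figure D1:**
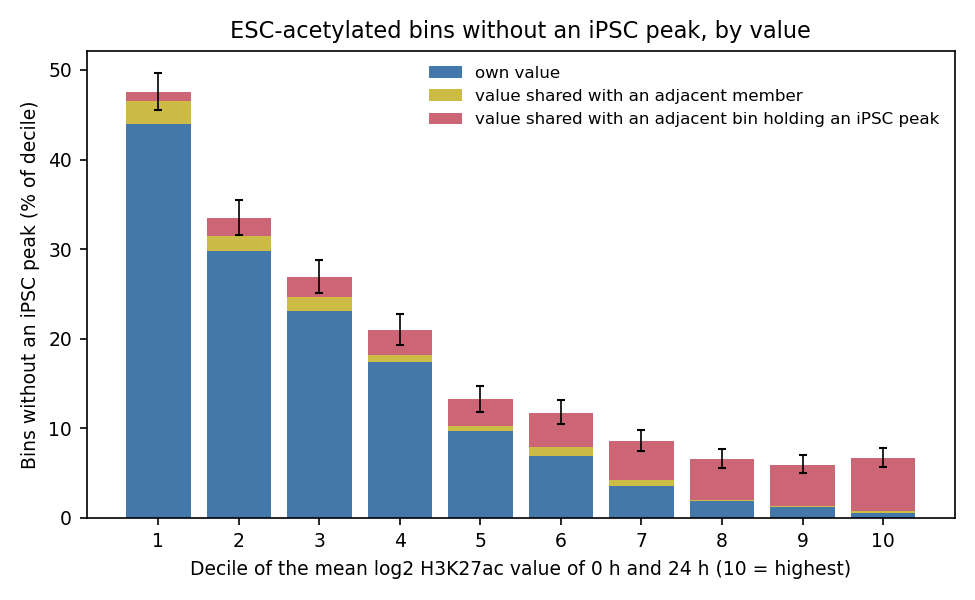
Share of valued bins that overlap no iPSC peak, by decile of the mean log2 H3K27ac value, with 95% exact binomial intervals, stacked by whether the bin had its own value, that of an adjacent unmatched bin (member) or that of an adjacent bin with an iPSC peak. The unmatched share was 47.6% in the lowest decile and 6.68% in the highest. In the highest decile, 92.1% of unmatched and 74.4% of matched bins had an equal-valued neighbour.

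Many unmatched bins with a high value carried the value of the bin next door. An adjacent bin held exactly the same value at both times for 992 unmatched bins (24.0%, 22.7 to 25.3) and for 31.7% (31.0 to 32.3) of matched bins, lower in unmatched bins on 20 of 20 chromosomes. For 782 unmatched bins (18.9%) the equal neighbour held an iPSC peak, and for 210 it was another unmatched bin. In the highest decile by value, 92.1% of 152 unmatched bins had an equal neighbour and 88.2% an equal neighbour with an iPSC peak, which left 12 bins with a value of their own. In the lowest decile these shares were 7.58% and 2.22% of 1082 bins. Among matched bins, 74.4% had an equal neighbour in the highest decile and 6.04% in the lowest. Equal values thus became more frequent with value in both classes. Within every decile the share was higher in unmatched than in matched bins, at 41.2% against 24.0% in decile 6. The order over all bins was thus reversed among bins of like value. The median 0 h value was 5.80 for bins equal to a peak-holding neighbour and 3.51 for those equal to an unmatched neighbour. It was 3.33 for bins with their own value and a peak within 10 kb, 3.24 with a peak 10 to 50 kb away and 3.40 with none within 50 kb. The high values of unmatched bins thus lay mainly in the bins that shared a value with a matched neighbour.

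In these 782 equal-valued pairs, the neighbour with the iPSC peak had the higher bin score. The bin score is the unlabelled whole number in the fourth column of the ESC lists, and no source used here states its meaning. Its mean at 0 h was 4.06 in the unmatched bin and 7.33 in the neighbour, and at 24 h 3.86 and 6.57. The neighbour was higher at 0 h in 571 pairs (73.0%), equal in 94 and lower in 117, and its mean was higher on 20 chromosomes. Off chromosome 18, a gene start lay in the unmatched bin in 34 and in the neighbour in 212 of 743 pairs. An H3K27ac peak was present in 750 of the neighbours (95.9%) and a KLF4 peak in 400 (51.2%). The nearest peak lay a median of 0.478 kb from the unmatched bin and within 1 kb in 580 pairs (74.2%). The pairs therefore had 1 value but differed in score, gene starts and, by the rule, in iPSC peaks.

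Most unmatched bins lay near an iPSC peak. The gap from the bin's edge to the nearest peak of either kind had a median of 3.79 kb (interquartile range 0.907 to 11.4 kb). It was at most 1 kb for 1090 bins (26.4%, 25.05 to 27.8), at most 10 kb for 2960 (71.7%, 70.3 to 73.0) and over 50 kb for 152 (3.68%, 3.13 to 4.30). For 49 bins it exceeded 100 kb, and the longest gap was 565 kb. H3K27ac peaks alone lay at a median of 4.60 kb and KLF4 peaks alone at 14.3 kb. A valued bin with an iPSC peak adjoined 64.3% (62.8 to 65.8) of unmatched and 67.8% (67.1 to 68.4) of matched bins. A peak in the next bin was thus not particular to unmatched bins. Bins with their own value had a median gap of 5.61 kb, against 0.478 kb for those equal to a peak-holding neighbour. A peak in the adjacent bin limits the gap to 10 kb, so this order was partly set by the grouping. Among bins with their own value and a peak within 10 kb, 23.7% had one within 1 kb. For bins equal to a peak-holding neighbour this share was 74.2%.

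**Figure D2:**
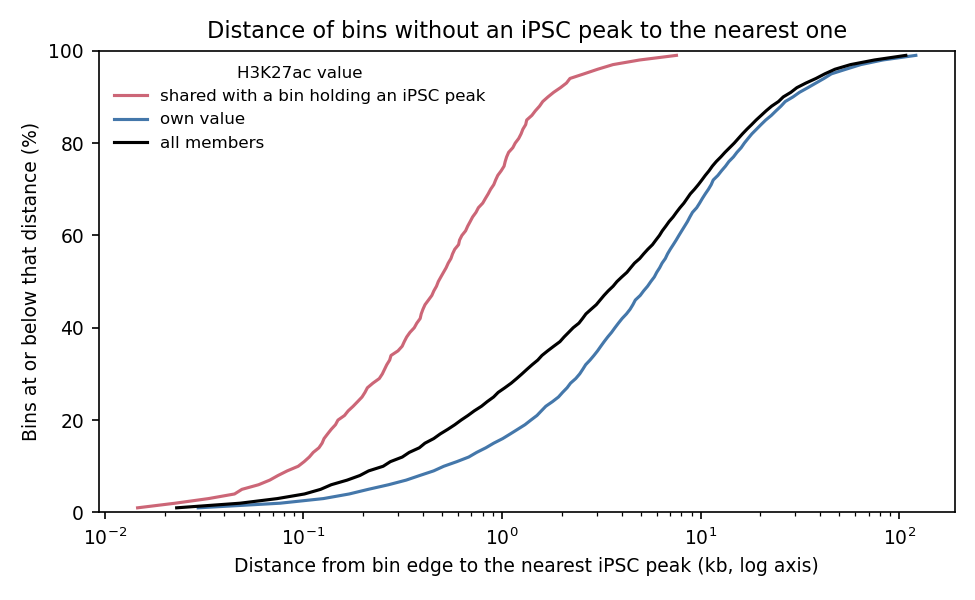
Cumulative share of unmatched bins by distance from the bin edge to the nearest iPSC peak, in kb on a log axis, for all of them (all members), for those that share their value with a peak-holding neighbour and for those with their own value. The median gaps were 3.79, 0.478 and 5.61 kb. A peak-holding neighbour limits the gap to 10 kb.

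The shares of isolated bins differed by less than their intervals between the classes. No listed bin adjoined 1.65% (1.28 to 2.08) of unmatched and 1.68% (1.497 to 1.87) of matched bins, and no valued bin adjoined 24.0% (22.7 to 25.3) and 23.7% (23.1 to 24.3). Valued bins on both sides were less frequent, at 25.6% (24.3 to 26.97) against 33.2% (32.5 to 33.9). Another unmatched bin adjoined 828 unmatched bins (20.0%, 18.8 to 21.3) and 17.0% (16.4 to 17.5) of matched bins. The 4131 bins formed 3696 runs, of which 3303 were single bins, 357 had 2 bins, 31 had 3, 4 had 4 and 1 had 5.

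The longest run lay in Chd2, which encodes a chromodomain helicase (chromosome 7, 73460001 to 73510000). Its 5 bins had 0 h values of 2.73, 3.30, 2.46, 2.79 and 3.63 and 24 h values of 2.95, 3.48, 2.75, 2.95 and 2.47, in genomic order. None equalled its neighbour, 4 of the 5 were slightly higher at 24 h, and their scores added up to 34 (0 h) and 38 (24 h). A 4-bin run 26.5 to 56.5 kb from Qk, an RNA-binding protein gene (chromosome 17, 10140001 to 10180000), was instead made of 2 equal pairs. The first pair read 9.65 at 0 h and 4.10 at 24 h, and the second 2.76 and 2.67. The iPSC peak nearest to these bins was 48.3 to 68.3 kb away. The other runs of 4 lay over Sgf29, Sult1a1 and Slx1b (0 h values 2.73 to 5.54), 18.7 to 48.7 kb from Ddah1 (4.05 to 4.99) and in Zmym4 (2.99 to 3.27). Values within the long runs thus ranged from low to high.

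The relative values of unmatched bins were slightly higher than those of all valued bins, although their 24 h values were lower (medians 3.32 and 4.21). The median relative value was 0.10 (SD over bins 0.40) in unmatched bins and -0.02 (SD 0.35) in matched bins. It was 0.05 with an H3K27ac peak only, -0.03 with a KLF4 peak only and -0.09 with both. The unmatched median was higher than the matched median on 20 of 20 chromosomes, by 0.06 to 0.21, and by 0.11 within deciles of value. It was 0.13 in the lowest decile by value and -0.04 in the highest. As deposited, 63.9% (62.4 to 65.4) of unmatched and 80.5% (79.9 to 81.1) of matched bins were lower at 24 h, and the uncentred unmatched median was -0.13. A relative value at least 1.5-fold higher was reached by 443 unmatched bins (10.7%, 9.80 to 11.7), where all valued bins gave 4.94%. A value at least 1.5-fold lower was reached by 176 (4.26%, 3.67 to 4.92), against 5.63% of all. Because the rule required a value at both times in the same column, these counts are a description and support nothing further, and the 2 lists show no replicate spread to read them against.

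**Figure D3:**
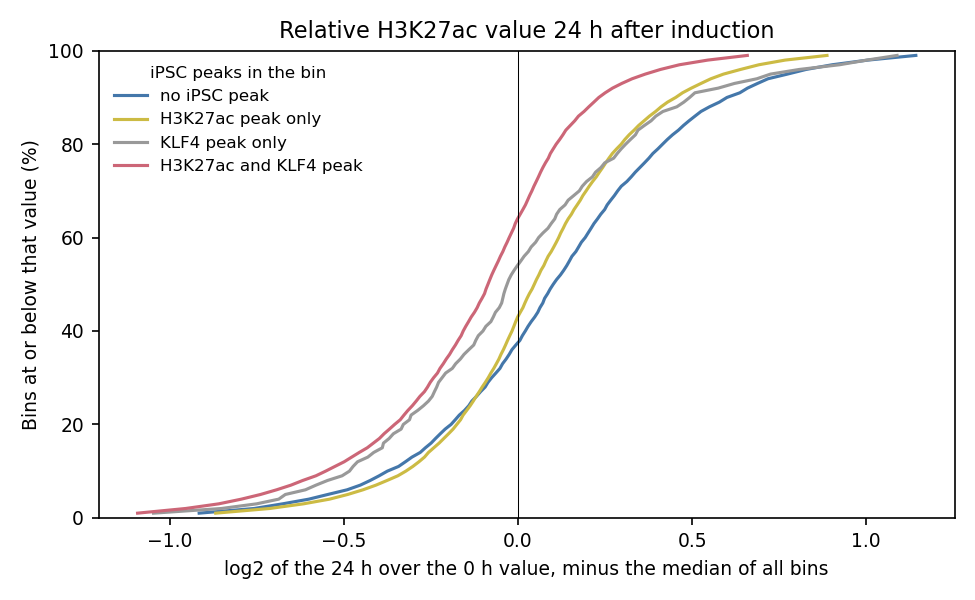
Cumulative share of bins by relative value (log2 of 24 h over 0 h minus the median of all valued bins) for unmatched bins (no iPSC peak) and the 3 matched classes. The curve of unmatched bins lies furthest to the right at its median, at 0.10, and that of bins with both peaks furthest to the left, at -0.09.

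Among unmatched bins above the median 0 h value, the lowest relative values lay beside iPSC peaks. Each bin is given with its nearest gene end, which can be far away. A bin 328 kb from Grin2a, a glutamate receptor subunit gene, read 9.99 at 0 h and 2.64 at 24 h, with scores of 11 and 2. The values were 8.78 and 2.39 in a bin 2.52 kb from Clec4a3, a C-type lectin gene, and 7.67 and 2.18 in a bin 182 kb from Gm47655. A bin at Adad2, of the adenosine deaminase domain family, read 6.10 and 1.94, and a bin 126 kb from Tbl1xr1, a corepressor subunit gene, 6.16 and 1.98. Their relative values ran from -1.41 to -1.69, with a peak 0.082 to 1.76 kb away, and all but the Tbl1xr1 bin had a peak-holding neighbour of equal value. These 5 values are therefore also values of matched bins in 4 cases.

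Of the 5 highest relative values among bins above the median 0 h value, 3 were in bins far from any iPSC peak. These bins lay 222 kb from Dhx35, an RNA helicase gene (3.97 and 7.41), 49.6 kb from Tex13d (4.11 and 7.61) and 107 kb from Bcor, a Polycomb-complex corepressor gene (8.78 and 16.1). They had no valued neighbour, carried a mark in the seventh column, and had their nearest iPSC peaks at 145, 133 and 75.5 kb. A bin 45.3 kb from the end of Slc22a23, a transporter gene (4.04 and 7.47), and a bin at Negr1, a neuronal adhesion gene (4.90 and 8.86), lay 1.83 and 0.336 kb from a peak. The Negr1 bin had no valued neighbour either, whereas the bin assigned to Slc22a23 equalled a peak-holding neighbour. The relative values of the 5 bins ran from 1.08 to 1.13, below the maximum of 1.77 over all unmatched bins, with scores of 1 to 6 at 0 h and 1 to 10 at 24 h.

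**Figure D4:**
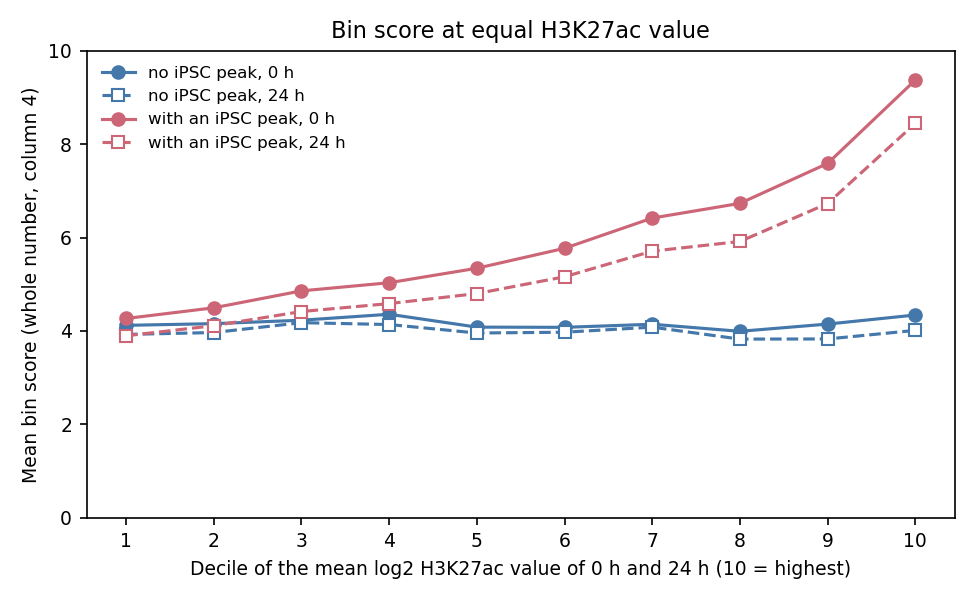
Mean bin score at 0 h and 24 h by decile of the mean log2 H3K27ac value, for unmatched bins (no iPSC peak) and matched bins (with an iPSC peak). At 0 h the mean of unmatched bins stayed between 3.99 and 4.36, while that of matched bins ran from 4.27 to 9.37.

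The bin score, which the rule did not use, was lower in unmatched bins than in all matched bins together. In unmatched bins it was nearly level over the H3K27ac values. Its mean was 4.17 in unmatched and 6.17 in matched bins at 0 h and 4.00 and 5.54 at 24 h, and its medians were 4 and 5 at 0 h and 3 and 5 at 24 h. The mean at 0 h was lower in unmatched bins on 20 of 20 chromosomes, by 1.37 to 4.04. From the lowest to the highest decile by value, the mean ran between 3.99 and 4.36 in unmatched bins, and ran from 4.27 to 9.37 in matched bins. At 24 h the classes were alike in the lowest decile, at 3.93 and 3.90, and read 4.01 and 8.44 in the highest. Within deciles the difference was -0.98 over all, against -2.00 without that grouping. Bins with their own value gave the same picture, with 4.16 in the lowest and 3.83 in the highest decile for unmatched bins (1000 and 12 bins) and 4.25 and 7.73 for matched ones. A score of 1 at 0 h was found in 15.9% (14.8 to 17.0) of unmatched and 8.31% (7.92 to 8.71) of matched bins, and a score of 10 or more in 4.87% (4.23 to 5.57) and 17.9% (17.3 to 18.4). Matched bins with a KLF4 peak only, the class closest in value, were close to unmatched bins in score. Their mean at 0 h was 4.31, with a score of 1 in 15.9% and of 10 or more in 5.29%. A low score was thus not particular to unmatched bins.

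Scores of unmatched bins moved little between the times. A score lower by 5 or more at 24 h was found in 28 unmatched bins (0.678%), where all valued bins gave 2.68%, and a score higher by 5 or more in 13 (0.315%), where all gave 0.29%. A fall by 5 needs a 0 h score of at least 6, and unmatched bins had the lower 0 h scores. The score was lower at 24 h in 35.9% (34.5 to 37.4), equal in 36.6% and higher in 27.5% of unmatched bins, against 48.0%, 29.5% and 22.5% of matched bins. Of the score summed over the 2 times, 48.98% fell to 24 h in unmatched bins and 47.3% in matched bins.

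High scores were found at bins of low to moderate H3K27ac. A bin 57.1 kb from the end of Zfp236, a zinc-finger gene, had the highest score, 24 at 0 h and 21 at 24 h, with values of 3.84 and 2.69, and an iPSC peak lay 3 bp beyond its edge. A bin at Actr1a, which encodes a dynactin subunit, scored 22 and 17 with values of 2.89 and 2.71. The bin at Scd1, the stearoyl-CoA desaturase gene, scored 21 and 11 with values of 5.14 and 2.92. Bins 13.6 kb from Smc5, of the SMC5/6 complex, and 79.7 kb from Zfp516 scored 19 at 0 h and 11 and 16 at 24 h, with 0 h values of 4.24 and 3.12. All 5 lay on chromosomes 18 and 19, on which matched bins also had their highest mean scores, 8.72 and 11.2. None of the 5 shared its value with a neighbour, and each was lower at 24 h than at 0 h in value and in score. Over all valued bins, 77.5% were lower at 24 h in value and 45.8% in score. The 5 bins were chosen for a high 0 h score, so their lower 24 h scores support nothing further.

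The 5 columns of marks, whose meaning is not stated either, were set in smaller shares of unmatched bins than of all matched bins together. Marks in the fifth to ninth columns were found in 2.32%, 0.266%, 12.3%, 3.12% and 0.169% of unmatched bins, against 4.48%, 2.33%, 19.2%, 3.64% and 1.59% of matched bins. For the eighth column the intervals overlapped (2.61 to 3.70 and 3.38 to 3.92). Bins with a KLF4 peak only had 3.43%, 0.286%, 14.9%, 4.00% and 0%, in the same order. The seventh column was marked in 62 of the 152 unmatched bins more than 50 kb from an iPSC peak (40.8%). Of those 152 bins, 61 (40.1%) had a score of 1 at 0 h, and 31 lay near a gene end. In unmatched bins the seventh mark went with fewer valued neighbours, since 38.2% of 508 marked and 22.0% of 3623 unmarked bins had none, and with a relative median of 0.19 against 0.09. In matched bins it went with -0.06 against -0.01, so the order of marked and unmarked bins differed between the classes.

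Chromosome X held the largest share of unmatched bins. They were 143 of its 577 valued bins (24.8%, 21.3 to 28.5), against 3988 of 22162 autosomal ones (17.99%, 17.5 to 18.5) and a range of 15.2% (chromosome 4) to 23.9% (chromosome 14) over single autosomes. No iPSC peak lay within 50 kb of 17 of the 143 bins (11.9%, 7.08 to 18.4), against 3.39% (2.85 to 3.99) on autosomes. The median 0 h value on chromosome X was 5.86 in unmatched and 8.41 in matched bins, compared with 3.48 and 5.21 on autosomes. At 24 h the medians were 5.33 and 6.84, against 3.28 and 4.41. iPSC H3K27ac peaks numbered 2.28 per valued bin on chromosome X and 2.44 on autosomes. How many X chromosomes the ESCs and iPSCs carried is stated in no source used here, and its part in these values was not tested.

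The highest 0 h values were found mostly in bins that repeated a neighbour's value, and 5 of the 10 highest lay on chromosome X. A bin 184 kb from the end of its nearest gene, Rims1, read 16.95 at 0 h and 13.2 at 24 h, and a bin 1.41 kb from Ooep, an oocyte gene, 16.3 and 12.1. Bins 13.5 kb from Tsr2, which encodes a ribosome biogenesis factor, and 0.984 kb from Lax1, which encodes an adaptor of lymphocytes, read 15.6 and 12.9, and 15.1 and 12.3. Bins 18.5 kb from Car8 (14.9 and 10.8), 3.23 kb from Gpr174 (14.3 and 5.62) and 95.01 kb from Ahr, the aryl hydrocarbon receptor gene (14.7 and 15.8), likewise equalled a peak-holding neighbour. Of the bins named here, only that assigned to Ahr was higher at 24 h. Bins 29.4 kb from Pcdh11x (14.6 and 9.33) and 191 kb from Tmem47 (14.5 and 11.2), both on chromosome X, had their own value, a score of 1 at both times, and a peak 15.0 and 9.90 kb away. The latter is not the bin that holds the Tmem47 start, which read 6.30 and 7.02. Scores of the 10 bins were 1 to 6 at 0 h.

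Among bins with their own value and no iPSC peak within 50 kb, a set chosen after values were seen, 5 of the 8 highest 0 h values lay on chromosome X. The highest read 9.17 and 7.63, had its nearest peak 116 kb away, and lay 378 kb from the end of its nearest gene, Rbfox1. Bins 56.5 kb from Pabpc6 (8.78 and 6.19) and 107 kb from Bcor (8.78 and 16.1), and the bins at Nr0b1 (7.93 and 4.82) and Prps2, which encodes a nucleotide synthesis enzyme (7.60 and 10.1), followed. A bin 306 kb from Irx2 (7.04 and 7.72), a bin 9.04 kb from Pcdh19, a protocadherin gene (6.87 and 7.15), and the bin at Mid1ip1 (6.82 and 6.21) completed the 8. Of these 8 bins, 4 were higher at 24 h as deposited, and the score was 1 to 5 at 0 h. None had a valued neighbour.

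By nearest gene end within 100 kb, 2223 genes had 1 unmatched bin, 449 had 2, 132 had 3, 41 had 4, 26 had 5, 7 had 6 and 3 had 7. Usp9x, Qk and Trim24 had 7 each, of 14, 11 and 18 valued bins assigned to them. Around Usp9x, an X-linked deubiquitinase (chromosome X, 13070982 to 13173328), 3 bins before the gene in coordinate order read 9.94 to 12.7 at 0 h and 8.16 to 10.5 at 24 h and equalled a neighbour. The 4 bins in the gene body had their own values, 3.59, 5.23, 4.66 and 4.71 at 0 h and 3.60, 4.95, 4.43 and 3.48 at 24 h, and scores of 6 to 11 at 0 h. The 7 bins of Trim24, a bromodomain cofactor, had no equal neighbour and read 2.90 to 7.27 at 0 h and 2.82 to 3.93 at 24 h. The highest of them, 7.27, read 3.58 at 24 h, whereas 2 others were higher at 24 h as deposited.

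The genes with 6 unmatched bins were Nr5a2, Chd2, Lamc1, Rnf220, Gpbp1, Epb41l4a and Aff1. Nr5a2 encodes a nuclear receptor that binds near pluripotency genes, and its bins read 4.32, 2.09, 8.15, 3.50, 3.07 and 4.19 at 0 h and 3.89, 2.55, 6.04, 3.09, 3.09 and 2.04 at 24 h. Only 1 of these equalled a neighbour at both times, and 3 of the 9 valued bins of Nr5a2 held an iPSC H3K27ac peak. Aff1, a subunit gene of a transcription elongation complex, had the highest relative median, 0.40, with all 6 bins above 0 and 0 h values of 2.03 to 3.09. Epb41l4a had the highest summed score, 68 at 0 h and 54 at 24 h, with 0 h values of 2.14 to 3.68. Lamc1, a laminin chain gene made by primitive endoderm, read 2.49 to 6.82 at 0 h and 1.99 to 5.85 at 24 h. The bins of Gpbp1 and Rnf220 read 2.79 to 3.80 and 3.32 to 5.04 at 0 h. The highest 0 h values of these 7 genes were 8.15 at Nr5a2, 7.63 at Chd2 and 6.82 at Lamc1.

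**Figure D5:**
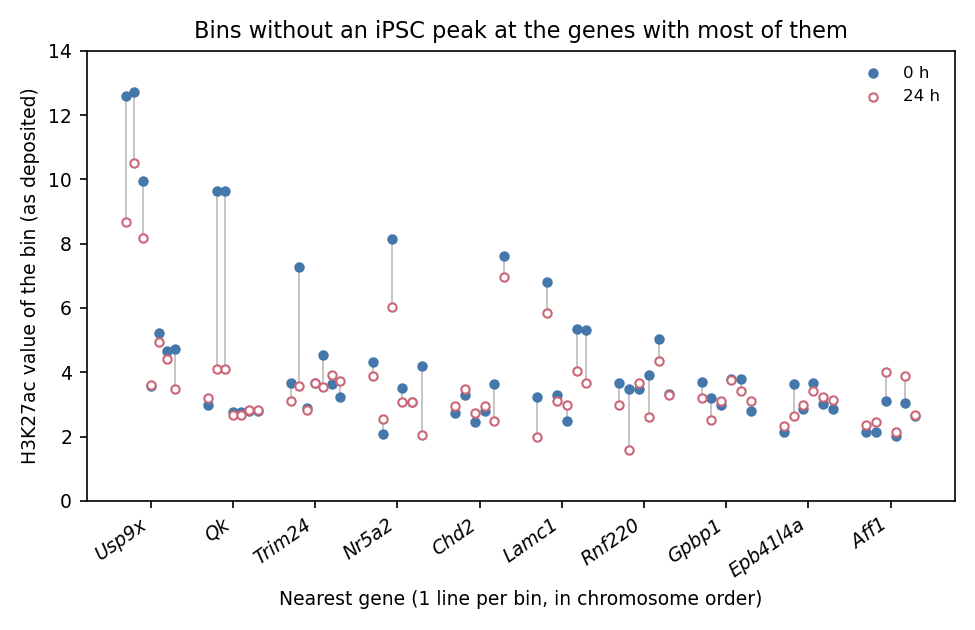
H3K27ac value at 0 h and at 24 h of each unmatched bin assigned to the 10 genes with most of them, 1 point per bin and time joined by a line, as deposited. Usp9x, Qk, Nr5a2, Chd2 and Trim24 each have at least 1 bin above 7 at 0 h. The bins of Aff1 lie between 2.03 and 3.09 at 0 h and between 2.15 and 4.00 at 24 h.

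Few genes were covered by unmatched bins alone. Of 2347 genes with at least 3 valued bins touching the gene, 3 had unmatched bins only, or 0.128%. They were Iqgap2, a scaffold gene (0 h values 2.48, 2.48 and 7.08, and 2.33, 2.33 and 3.11 at 24 h), Tnk2, a kinase gene (5.98, 2.52 and 3.98, and 4.11, 2.86 and 3.84), and Trim31, a ubiquitin ligase gene (4.61, 2.67 and 3.17, and 3.36, 2.53 and 2.23). The nearest iPSC peak of these 9 bins was 338 to 20338 bp away. With 10 kb on each side, 32.3% of 11239 genes with a valued bin had at least 1 unmatched bin, and 4.3% had no other valued bin. Unmatched bins were 15.8% of the valued bins counted around all these genes.

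Genes of chromatin architecture had a larger share of unmatched bins than the 15.8% of all genes. Of the 18 genes for CTCF, cohesin, Mediator and coactivators, 13 had an unmatched bin, and 23 of their 77 valued bins were unmatched (29.9%). Of all genes with a valued bin, 32.3% had an unmatched bin, at a median of 2 valued bins per gene. Ep300, which encodes the acetyltransferase p300, had 4, of 2.57, 3.28, 3.68 and 3.86 at 0 h and 3.63, 2.99, 3.34 and 3.29 at 24 h. Both valued bins of Med12, a Mediator kinase-module subunit, were unmatched, at 3.44 and 6.16 at 0 h and 4.07 and 5.72 at 24 h, with a peak 37.3 and 47.3 kb away. Ctcf itself had 2, of 6.07 and 3.19 at 0 h and 5.68 and 2.02 at 24 h, the first equal to its neighbour. Crebbp had 2, of 4.75 and 4.00 at 0 h. Of 10 X-linked genes that escape inactivation or are dosage sensitive, 6 had an unmatched bin. Of their 35 valued bins 14 were unmatched (40.0%), against 24.8% of all valued bins on chromosome X, and 5 of the 14 were at Usp9x. There Kdm6a, an H3K27 demethylase gene, read 8.18, 8.18 and 5.86 at 0 h and 8.69, 8.69 and 6.64 at 24 h, and Atrx 6.45 and 10.5 at 0 h and 3.69 and 7.55 at 24 h.

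Naive pluripotency genes were close to the average of all genes in their share of unmatched bins, at 13 of 81 valued bins (16.05%) around 8 of 18 genes. Fbxo15, an early ESC marker, had 3, of 10.1, 3.01 and 4.11 at 0 h and 8.03, 2.89 and 3.82 at 24 h, the first equal to a peak-holding neighbour. Tet2, a methylcytosine dioxygenase gene, had 2, of 3.37 and 3.89 at 0 h and 2.18 and 2.67 at 24 h. The only valued bin of Nr0b1, whose start window is printed above, was unmatched, scored 1 at both times and lay 413 kb from the nearest iPSC peak. For shared pluripotency genes the count was 10 of 66 bins (15.2%) around 5 of 16 genes. Sall4 had 2, of 12.3 and 2.94 at 0 h and 11.4 and 4.13 at 24 h, and Etv5, an ETS factor gene of the ERK response, had 2, of 4.02 and 10.5 at 0 h and 3.62 and 8.96 at 24 h. The high bins of both genes equalled a peak-holding neighbour.

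The shares of signalling lists are given by pathway, beside 15.8% of the valued bins around all genes and 32.3% of all genes with a valued bin. In the LIF and STAT3 list, 10 of 40 valued bins (25%) around 5 of 11 genes were unmatched. Lifr, the LIF receptor gene, had 4, of 3.04, 3.08, 3.51 and 3.51 at 0 h and 3.45, 4.64, 3.47 and 3.47 at 24 h, and Il6st, the gene of its partner gp130, 2, of 3.03 and 2.73 at 0 h and 2.24 and 3.74 at 24 h. In the Wnt list 12 of 44 (27.3%) were unmatched, around 8 of 12 genes. Ror2, a receptor for Wnt5a, had 5, of 3.12 to 3.77 at 0 h, and the bins of Tcf7l1 (12.1 and 8.34), Fzd5 (9.74 and 8.08) and Ctnnb1 (5.67 and 4.91) each equalled a peak-holding neighbour. In the FGF and ERK list 8 of 56 (14.3%) around 6 of 12 genes were unmatched, among them 2 of Fgfr2, at 2.79 and 2.32 at 0 h and 3.24 and 5.87 at 24 h. The Nodal, BMP and TGF-beta list had 2 of 20 (10.0%), at Bmpr2 and Smad3.

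The other lists held fewer valued bins. Polycomb genes had 12 of 63 unmatched (19.05%), with 4 at Jarid2 of 1.97 to 3.65 at 0 h. Ribosomal protein genes had 7 of 50 (14%), extracellular matrix genes 10 of 46 (21.7%), of which 5 at Lamc1, and imprinted genes 6 of 26 (23.1%), of which 3 at Grb10. Primitive endoderm genes had 6 of 22 (27.3%), of which 5 were the same bins at Lamc1. Neuroectoderm genes had 2 of 6, glutamate receptor and neuronal adhesion genes 5 of 23 (21.7%) and primed or formative genes 1 of 14, at Nodal. Trophectoderm genes had none of 21, MHC and interferon genes none of 21 and mesendoderm genes none of 1. Fibroblast genes, as markers of the feeder cells, had 2 of 15 (13.3%), at Col1a1 (3.35 and 2.59) and Loxl1 (2.97 and 2.60), and the part of feeder cells in the unmatched bins was not tested. Over the 20 lists, 81 of 195 genes with a valued bin had an unmatched bin, against 32.3% of all 11239 genes with a valued bin. The median over all these genes was 2 valued bins. Genes with more valued bins can more easily hold an unmatched one, so these counts of genes are a description only. These shares were not tested, and genes within a list can share bins.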

How the data were processed

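ChIP-seq samples were grouped by their titles, and the 4 deposited lists were tied to groups by name. MACS2, Bowtie2, bedtools and SAMtools, and the build mm10, are listed per the submitters' processing notes without versions or roles. How replicates were pooled, the normalization and the caller's threshold are not given in the sources used here. The last column of the deposited ESC lists was read as H3K27ac signal per 10 kb bin, and bins without signal hold the smallest storable number. The fourth column of the deposited lists holds whole numbers without a label, termed the bin score. Marks in the 5 columns between, of type other in the deposited lists, did not differ between the lists on 41942 shared bins. The deposited iPSC lists give positions only. Columns of samples left unused numbered 0.

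Bins and peaks were compared by an overlap of 1 bp with Python 3.11.15, pandas 2.3.3, numpy 2.4.6 and SciPy 1.17.1, and figures were drawn with matplotlib 3.10.9. Intervals are exact (Clopper-Pearson). Gene positions and the 250 bases before gene starts came from RefSeq (GRCm38.p6, whose primary assembly is that of mm10), and gene starts on chromosome 18 were not used here. A bin's nearest gene is the protein-coding gene with the nearest end. The planned median of the bin score was replaced by the mean in the alternatives, since medians of whole numbers hardly move.

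Members and gene lists were chosen with earlier results of these data known. Genes named were the 10 with most unmatched bins, those nearest to the 10 highest 0 h values, to the 5 lowest and 5 highest relative values above the median 0 h value, to the 5 highest scores and to the 5 longest runs, genes with unmatched bins only, up to 4 per list and up to 8 gene starts. The counting was tested on simulated data. Some items these rules name are not reported here.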

Additional observations from a re-analysis of the deposited data

How the results depend on the processing

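Direction was kept under every alternative run for the gene-end share (14 alternatives) and the bin score (11), and under 11 of 12 for the relative value, whose median without centring was -0.13 in place of 0.10. The number of unmatched bins was 1171 when a peak within 10 kb also counted, 13882 with KLF4 peaks only, 7554 with the wider part of each peak list only and 742 with bins above the median value only, against 4131. With a peak counted only by its centre, within 1 kb, within 10 kb, with H3K27ac peaks only and with KLF4 peaks only, the gene-end difference was -15.8, -20.5, -21.5, -16.2 and -14.3 points (main -17.9) and the relative value 0.082, 0.14, 0.18, 0.085 and 0.061. Equal values stood at 29.8%, 13.3%, 12.7% and 28.5% with the centre, 1 kb, 10 kb and KLF4-only settings (main 24.0%), and the score difference at -1.85, -2.16 and -1.75 with the last 3 of these (main -2.00). The wider peaks gave 0.081, -2.10 and 20.9% for relative value, score and equal values, and bins above the median gave -20.05 points, 0.023, -3.12 and 68.9%. Without bins equal to a peak-holding neighbour the relative value was 0.14 and equal values 6.27%. With 1 bin per equal run they were 0.13 and, by construction, no value, and the score difference was -1.56. The gene-end difference was -14.8 points with 5 kb, -16.0 with all genes and -15.1 within deciles, where the score difference was -0.98. A gene start in the bin, an alternative chosen after seeing the data, gave -22.5 points. Equality at 0 h only gave 28.1%. With 25 kb on each side, 106 list genes had an unmatched bin, against 81.

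No paired analysis was possible because each group has 1 list whose columns carry no replicate numbers, and no replicate was left out for the same reason. Read depth, the scaling between the times and the peak thresholds are unknown, so a low value without an iPSC peak cannot be told apart from a peak that missed the threshold. The cause of the changed values was not tested, beyond the smaller or larger sets that the alternatives themselves define.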
